A study of Mus musculus with 9 samples.

Results

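The genes described here are the receptors and signalling chains through which myeloid cells read immunoglobulin G and related triggers: the IgG Fc receptor genes Fcgr1, Fcgr2b, Fcgr3 and Fcgr4, the adaptor genes Fcer1g and Tyrobp, and Trem1 and Trem3, whose receptors use Tyrobp. They were chosen by name, as 8 of the 27179 gene entries counted in each file, and all 8 had an entry and were tested. The cells are AML246, a mouse leukaemia line from C57BL/6 that lacks p53 (p53-/-) and holds a short hairpin RNA against PU.1 (shPU.1), grown in medium with IL3. Every group shares that background, and the line is represented by single-cell clones 1, 2 and 4, so a group is 3 clones of 1 leukaemia. Washed cells had 14 days of doxycycline (Dox) and then 14 days without it and were sorted GFPhigh, doxycycline cells had 14 days of Dox and were sorted GFPoff, and untreated cells had none and were sorted GFPhigh; each group holds 1 library per clone. The treatment, the gate and the state of the hairpin change together and cannot be told apart.

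Fc receptors bind the constant part of antibodies. The activating IgG receptors of the mouse, encoded by Fcgr1, Fcgr3 and Fcgr4, carry no signalling motif of their own and pair with the FcR gamma chain, the product of Fcer1g, whose tyrosine motif (ITAM) recruits the kinase Syk once Src-family kinases have phosphorylated it. Fcgr2b encodes the inhibitory IgG receptor, which carries an opposing motif (ITIM) that recruits phosphatases, so the balance of activating over inhibitory receptors sets how strongly a cell answers immune complexes. Tyrobp encodes DAP12, a second ITAM adaptor, and serves among others TREM-1, which amplifies inflammatory signals in neutrophils and monocytes, and TREM-3, a related receptor of the mouse. PU.1, encoded by Spi1, is an ETS transcription factor of the myeloid lineage and binds purine-rich sequences around a GGAA core, of which GAGGAA is the classical PU box.

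The promoters of 6 of the 8 genes (Fcgr1, Fcgr2b, Fcgr3, Fcgr4, Fcer1g and Trem1) were found in the RefSeq table of GRCm38.p6, and the 4 that hold the letters GAGGAA on either strand in the 250 bases before the start site are shown because PU.1 is the factor varied here. Each is written 5′ to 3′ on the strand of its gene and ends at the base before the start, with the match in capitals, which reads TTCCTC where it lies on the opposite strand.
Fcgr1 (chr3:96293970-96294219, minus strand): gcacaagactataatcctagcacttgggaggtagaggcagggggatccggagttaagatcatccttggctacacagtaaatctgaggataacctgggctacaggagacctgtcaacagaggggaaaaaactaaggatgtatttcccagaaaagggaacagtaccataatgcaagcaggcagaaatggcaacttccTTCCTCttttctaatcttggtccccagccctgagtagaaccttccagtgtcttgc
Fcgr3 (chr1:171059395-171059644, minus strand): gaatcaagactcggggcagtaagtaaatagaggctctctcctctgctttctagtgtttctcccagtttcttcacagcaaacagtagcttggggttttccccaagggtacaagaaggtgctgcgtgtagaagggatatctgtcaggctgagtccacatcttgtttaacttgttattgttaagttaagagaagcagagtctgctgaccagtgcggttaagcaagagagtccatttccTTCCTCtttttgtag
Fcgr4 (chr1:171018676-171018925, plus strand): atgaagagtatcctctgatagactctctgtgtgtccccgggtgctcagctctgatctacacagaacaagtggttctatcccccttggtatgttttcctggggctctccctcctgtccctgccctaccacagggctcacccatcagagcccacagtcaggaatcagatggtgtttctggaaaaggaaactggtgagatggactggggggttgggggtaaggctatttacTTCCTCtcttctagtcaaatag
Trem1 (chr17:48232489-48232738, plus strand): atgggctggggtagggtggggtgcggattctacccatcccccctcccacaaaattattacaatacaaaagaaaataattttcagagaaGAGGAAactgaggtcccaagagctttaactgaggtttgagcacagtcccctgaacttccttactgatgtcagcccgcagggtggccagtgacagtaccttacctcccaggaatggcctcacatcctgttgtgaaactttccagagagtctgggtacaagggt

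The match began 55 bases before the start of Fcgr1, 22 before that of Fcgr4, 15 before that of Fcgr3 and 162 before that of Trem1. The Fcgr3 window lies inside the gene, at a start downstream of the outermost one. The Trem1 window also belongs to a start downstream of the outermost one, since it runs past base 48232713, where the gene begins. Another start listed for Fcgr3 had the same match 6 bases before it. The Fcgr4 match extended to GAGGAAGT, and it was the only one of the 6 genes to hold those letters. GAGGAA stood in 23.3% and GAGGAAGT in 2.44% of all 32851 promoter windows of that length in the table, and the shorter GGAA, which both contain, in 93.4%. Fcgr2b and Fcer1g held GGAA but not GAGGAA in this window. The genes with the letters did not move alike: Fcgr1, Fcgr4 and Trem1 rose in doxycycline and Fcgr3 did not pass the test, and Fcgr2b, without them, rose too. A match of letters is a description of the sequence and not a binding site.

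Library totals ran from 7408118 to 9803258 counts, and 12004 genes passed the filter on low counts. Levels are given as CPM, the count scaled to the TMM-adjusted size of its library. Changes were tested with edgeR's quasi-likelihood test with Benjamini-Hochberg adjustment over all 12004 genes at 0.05, and the spread behind these p-values is that between 3 clones of the same leukaemia. Spi1 stood at 52.0, 40.6 and 23.9 CPM in washed clones 1, 2 and 4, at 197, 191 and 156 CPM in doxycycline and at 48.1, 46.6 and 23.7 CPM untreated, so the hairpin target was highest in doxycycline in every clone. Untreated clone 1 stood apart: 22% of its counts lay on 1 entry without a symbol, which took at most 1.64% of the other libraries. In washed clone 1, Mpo, the neutrophil granule enzyme myeloperoxidase, stood at 1720 CPM, against 65.1 and 50 CPM in the other washed clones. Of 8 genes listed as myeloid blast markers 4 (Ptprc, Itgam, Cd34 and Kit) rose in doxycycline and 0 fell, against 6.57% and 4.35% of all genes. Among them Ptprc was tested only through the doxycycline libraries. Ptprc, the pan-leukocyte antigen CD45, stood at 0.489 to 0.735 CPM in washed cells and 28.0 to 45.1 CPM in doxycycline, against 0.988 to 2.02 CPM untreated, while Kit, the stem cell factor receptor of blasts and mast cells, was at least 48.8 CPM in every library. The granule genes among the markers had lower means in doxycycline than untreated (Mpo 9.88 and 71.1 CPM, Elane 9.95 and 41.8 CPM, Ctsg 58.1 and 177 CPM, Prtn3 55.0 and 105 CPM) and did not pass. With clones paired by a replicate block 3 of the 8 (Elane, Mpo and Ctsg) passed as lower, against 11.7% of all genes. Mpo cleared the filter on low counts in only 1 of 3 doxycycline libraries, so that its lower level there follows from having been tested.

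Switching the hairpin off with doxycycline was accompanied by higher levels of 6 of the 8 genes, against 6.57% of all genes tested that passed upwards and 10.9% that passed in either direction. Fcgr1, Fcgr4, Fcgr2b, Tyrobp, Trem1 and Trem3 rose. Fcgr3 and Fcer1g did not pass the test in that comparison or in any alternative tried. Fcgr1, Fcgr4, Trem1 and Trem3 cleared the filter on low counts in all 3 doxycycline libraries, in no untreated library and in at most 1 washed library, so for them a difference follows from having been tested at all, and the count of 6 is a description. Fcgr2b, Fcgr3, Fcer1g and Tyrobp cleared it in all 9 libraries: of these 4, Fcgr2b and Tyrobp rose.

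**Figure D1:**
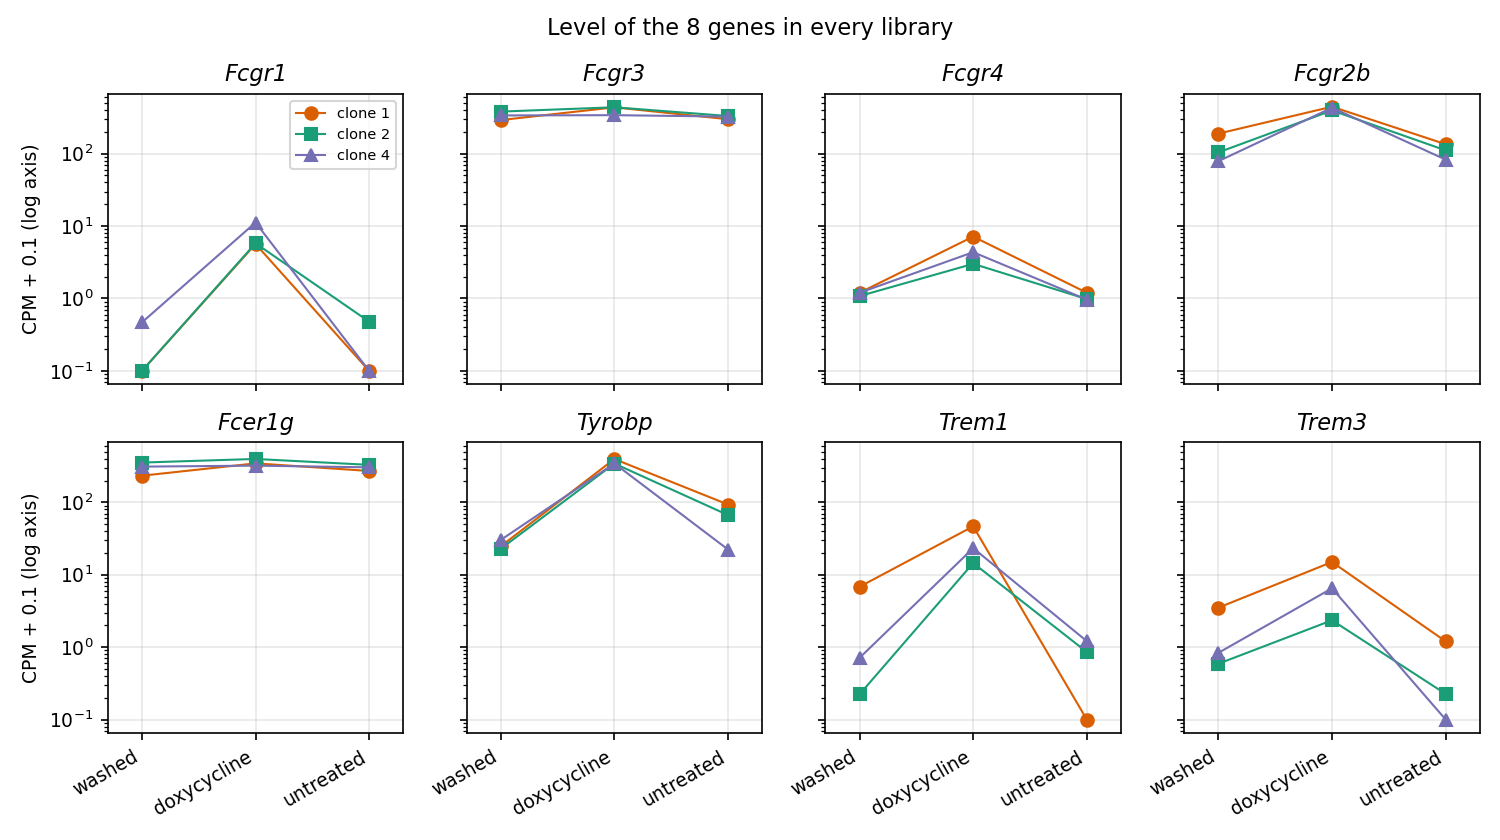
CPM plus 0.1 on a log axis for each gene (panels) in washed, doxycycline and untreated libraries, with lines joining the libraries of a clone. Fcgr3 and Fcer1g run flat between 233 and 437 CPM, while the other 6 genes peak in doxycycline in every clone.

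The high-affinity IgG receptor gene Fcgr1 (Entrez gene 14129, chromosome 3, 96282909 to 96293969 on GRCm38) was nearly silent outside doxycycline. It had 0, 0 and 3 counts in washed clones 1, 2 and 4, 63, 43 and 115 counts in doxycycline, and 0, 3 and 0 counts untreated. The doxycycline libraries lay at 5.56, 5.69 and 11.1 CPM and did not overlap with the other groups, which reached at most 0.378 CPM. Scaled to library size, the summed doxycycline counts were 54.2 times the untreated ones, with an exact 95% interval for counting error of 18.3 to 265. Both the rise (5.62 ± 1.06 SE on the log2 scale, adjusted p = 0.0123) and the fall on washout (-5.88 ± 1.05 SE on the log2 scale, adjusted p = 0.0114) passed, though the fitted values rest on 3 counts in each low group.

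Fcgr4 (Entrez gene 246256, chromosome 1, 171018926 to 171029761) encodes the intermediate-affinity activating receptor of mouse monocytes, macrophages and neutrophils. Its level was low throughout, at 1.10, 0.98 and 1.10 CPM in washed clones 1, 2 and 4, 7.06, 2.91 and 4.26 CPM in doxycycline, and 1.10, 0.882 and 0.865 CPM untreated. The doxycycline libraries lay above all others, by 6.41-, 3.30- and 4.93-fold over the untreated library of the same clone. The rise of Fcgr4 passed (2.32 ± 0.43 SE on the log2 scale, adjusted p = 0.0120), and so did its fall on washout (-2.15 ± 0.42 SE, adjusted p = 0.0160). Without clone 1 neither passed (adjusted p = 0.0516 for the rise and 0.0653 for the fall), nor did the fall when the washed and doxycycline libraries were fitted alone (adjusted p = 0.0670).

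Fcgr3 (Entrez gene 14131, chromosome 1, 171051169 to 171065915) encodes the low-affinity activating receptor and was the main activating IgG receptor gene of these cells. It stood at 291, 381 and 337 CPM in washed clones 1, 2 and 4, at 436, 437 and 340 CPM in doxycycline, and at 299, 331 and 325 CPM untreated. All doxycycline libraries lay above all untreated ones, as did those of 20.4% of the genes tested, but in clone 4 the 2 differed by only 1.05-fold. The change in doxycycline did not pass the test (log2 fold change 0.34 ± 0.18 SE, 95% interval -0.06 to 0.75, adjusted p = 0.254), nor did that after washout (log2 fold change -0.27, 95% interval -0.67 to 0.14, adjusted p = 0.393). The upper bound of 0.75 for the rise lay below the lower bound of 1.22 for Fcgr2b.

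Fcgr2b (Entrez gene 14130, chromosome 1, 170960558 to 170976071), the inhibitory receptor gene, stood at 189, 104 and 78.6 CPM in washed clones 1, 2 and 4, 445, 395 and 431 CPM in doxycycline, and 135, 111 and 82.6 CPM untreated. The doxycycline libraries were well above the rest and close to each other, at 424 ± 25.8 CPM (SD, n = 3), against 109 ± 26.2 CPM (SD, n = 3) untreated. Fcgr2b rose 3.29-, 3.57- and 5.22-fold within clones 1, 2 and 4 (log2 fold change 1.95 ± 0.33 SE, adjusted p = 0.00785). On washout it fell by 1.78 ± 0.32 SE on the log2 scale (adjusted p = 0.0123), to 0.425, 0.262 and 0.182 times the doxycycline level of the same clone. Fcgr2b and Fcgr3 are similar genes on 1 stretch of chromosome 1: of 1627 windows of 50 bases in protein-coding Fcgr3 transcripts of GENCODE, 10.2% also occur in Fcgr2b, and 4.48% of the Fcgr2b windows occur in Fcgr3, so some reads could have been assigned to either or to neither. No other 2 of the 8 genes shared such a window.

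Between the 2 ITAM adaptors the behaviour was unlike. Fcer1g (Entrez gene 14127, chromosome 1, 171229572 to 171234349) stood at 233, 354 and 311 CPM in washed clones 1, 2 and 4, 345, 397 and 321 CPM in doxycycline, and 271, 329 and 304 CPM untreated. The doxycycline and untreated libraries overlapped, and the change did not pass (log2 fold change 0.23 ± 0.20 SE, 95% interval -0.21 to 0.68, adjusted p = 0.491). The washout value did not pass either (log2 fold change -0.25, 95% interval -0.69 to 0.20, adjusted p = 0.481).

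Tyrobp (Entrez gene 22177, chromosome 7, 30413782 to 30417582) stood at 24.6, 22.7 and 30.1 CPM in washed clones 1, 2 and 4, at 396, 343 and 344 CPM in doxycycline, and at 93.2, 66.6 and 22.2 CPM untreated. The doxycycline libraries again lay close together, while the untreated ones were far apart, with clone 4 lowest. Tyrobp rose in doxycycline by 4.25-, 5.15- and 15.5-fold within clones 1, 2 and 4 (log2 fold change 2.58 ± 0.43 SE, adjusted p = 0.00806). After washout it fell to at most 0.0874 times the doxycycline level of the clone (log2 fold change -3.81 ± 0.46 SE, adjusted p = 0.00220), the smallest adjusted p among the 8 genes in any of the 3 comparisons.

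The TREM genes lie side by side on chromosome 17 and appeared mainly in doxycycline. Trem1 (Entrez gene 58217, 48232713 to 48246927) had 73, 1 and 5 counts in washed clones 1, 2 and 4, 527, 109 and 239 counts in doxycycline, and 0, 6 and 9 counts untreated. That is 6.72, 0.123 and 0.612 CPM washed, 46.5, 14.4 and 23.2 CPM in doxycycline, and 0, 0.756 and 1.11 CPM untreated. The doxycycline libraries were above every other library, with clone 1 the highest. The rise of Trem1 passed (5.36 ± 1.25 SE on the log2 scale, adjusted p = 0.0272). After washout the fitted change of -3.44 ± 1.07 SE missed the threshold (adjusted p = 0.0769) but passed when clones were paired (replicate block, adjusted p = 0.0119), with limma voom (adjusted p = 0.0361) and without washed clone 1 (log2 fold change -6.20, adjusted p = 0.00447).

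Trem3 (Entrez gene 58218, 48247677 to 48258848) had 37, 4 and 6 counts in washed clones 1, 2 and 4, 169, 17 and 66 counts in doxycycline, and 6, 1 and 0 counts untreated. As CPM these are 3.41, 0.490 and 0.734 washed, 14.9, 2.25 and 6.40 in doxycycline, and 1.10, 0.126 and 0 untreated. Doxycycline clone 2 lay below washed clone 1, so those groups overlapped. The rise of Trem3 passed narrowly (4.43 ± 1.22 SE on the log2 scale, adjusted p = 0.0477) and missed the threshold with limma voom (adjusted p = 0.0683). The washout change did not pass (log2 fold change -2.31 ± 1.00 SE, adjusted p = 0.183) but passed when clones were paired (replicate block, adjusted p = 0.00906). Annotated non-coding transcripts overlap both TREM genes in RefSeq, and the strand setting of the counting is not given in the sources used here, so their reads cannot be told apart.

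These calls rested on few libraries. All 6 doxycycline calls were lost without clone 2 or without clone 4, when 159 and 0 of all genes passed, and without the untreated library of clone 1 alone Fcgr2b (adjusted p = 0.0326) and Tyrobp (adjusted p = 0.0160) still passed. With clones paired by a replicate block, 6 passed on all clones, against 13.0% of all genes, 5 without clone 2 and 3 without clone 4 (Fcgr2b, Tyrobp and Trem3). Of the 6, only Fcgr2b and Tyrobp cleared the filter on low counts in every library, so these counts too are descriptions.

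**Figure D2:**
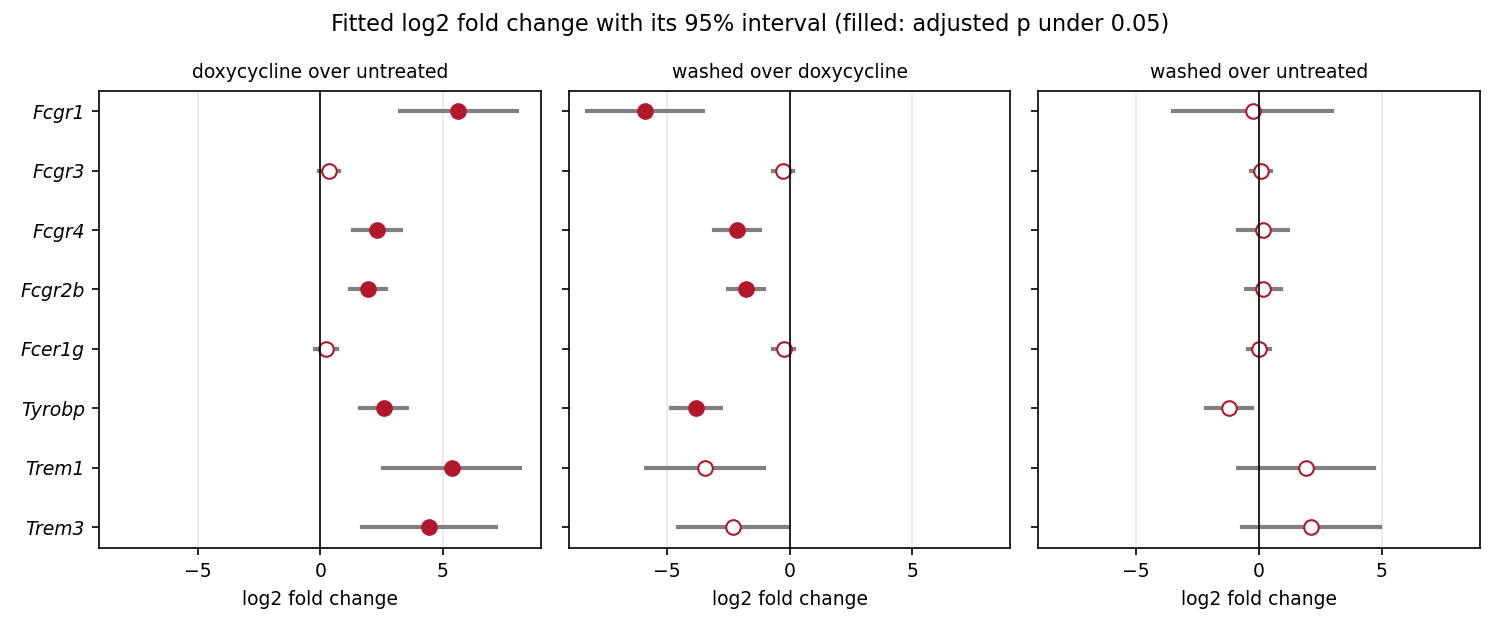
Fitted log2 fold change of each gene with its 95% interval (grey bar) in the 3 comparisons; filled points passed an adjusted p of 0.05. Of the 8 genes, 6 passed in doxycycline over untreated, 4 in washed over doxycycline and 0 in washed over untreated.

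Washing doxycycline out was accompanied by lower levels of 4 of the 8 genes (Fcgr1, Fcgr2b, Fcgr4 and Tyrobp), against 6.02% of all genes tested that passed downwards and 9.66% in either direction. With clones paired by a replicate block 6 fell, against 12.4% of all genes. Of the 8 genes, 5 had every washed library below every doxycycline library, against 14.5% of all genes. Fcgr1, Fcgr4, Trem1 and Trem3 cleared the filter on low counts in all 3 doxycycline libraries and in at most 1 washed library. For them a fall follows from having been tested, and the counts of 4, 5 and 6 are descriptions. Of the 4 that fell in the unpaired fit, Fcgr2b and Tyrobp cleared the filter in every library. These washout values share the doxycycline libraries with the first comparison, so the 2 sets of changes are not separate evidence. Without clone 2, 0 of the 4 passed, and without clone 4 only Tyrobp did.

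Washed cells were set against untreated cells to ask whether the genes returned to where they began. By edgeR 0 of the 8 passed, as did 0 of all 12004 genes, also with the block, DESeq2 and limma voom. In the unpaired edgeR fit 38 genes, among them Tyrobp, had an unadjusted p under 0.05. That is far below the share of 0.05 expected without any difference, so the unpaired fit was conservative here. A lack of calls therefore does not show that the genes returned to where they began. The 95% interval of the log2 difference was -0.33 to 0.48 for Fcgr3, -0.46 to 0.43 for Fcer1g and -0.53 to 0.89 for Fcgr2b, and wider for the low genes, up to -3.50 to 2.99 for Fcgr1. Tyrobp gave the largest difference among the 4 well-counted genes: washed clones 1 and 2 stood at 0.264 and 0.340 times their untreated libraries, and washed clone 4 at 1.35 times (log2 fold change -1.23, 95% interval -2.17 to -0.29, adjusted p = 1). Trem1 and Trem3 had more counts in washed clone 1 (73 and 37) than in untreated clone 1 (0 and 6), and Fcgr2b stood there at 1.40 times its untreated level, against 0.935 and 0.951 in clones 2 and 4. Without the washed library of clone 1 the Fcgr2b and Trem1 differences turned negative (log2 fold change -0.27 and -0.86).

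Differences among the clones were tested with the group held fixed, and 0 of the 8 genes and 0 of 12004 in all passed, although 4501 genes had an unadjusted p under 0.05. Trem3 came closest, with clone 2 lower than clone 1 by 2.86 and clone 4 by 1.83 on the log2 scale (adjusted p = 0.0544), and it passed with scaling by library size alone (adjusted p = 0.00495) and without the filter on low counts (adjusted p = 0.0211). The test of whether the doxycycline response itself differed among clones, taking washed and untreated libraries as 1 state, gave 0 calls of 8 and 0 of 12004 (407 at an unadjusted p under 0.05); the smallest p among the 8 genes was that of Fcgr2b (unadjusted p = 0.0797, adjusted p = 1).

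Levels of different genes were compared per kilobase of the deposited gene length, as TMM-scaled RPKM. In doxycycline the order ran from Tyrobp at 634 ± 52.8 RPKM and Fcer1g at 539 ± 58.9 RPKM to Fcgr3 at 299 ± 41.1 and Fcgr2b at 274 ± 16.7 RPKM (SD, n = 3 each). The ranges of Fcgr3 and Fcgr2b overlapped there, and Tyrobp and Fcer1g met at 603 RPKM in clone 2. Trem1, Trem3, Fcgr4 and Fcgr1 followed at 9.32, 7.90, 3.8 and 2.88 RPKM; neighbours in this order had overlapping ranges, while Trem1 (4.80 to 15.5 RPKM) and Fcgr1 (2.15 to 4.30 RPKM) did not overlap. Untreated cells gave another order: Fcer1g at 458 ± 43.7, Fcgr3 at 235 ± 12.8, Tyrobp at 107 ± 63.0 and Fcgr2b at 70.8 ± 16.9 RPKM (SD, n = 3 each), of which only Tyrobp and Fcgr2b overlapped, with the remaining 4 genes at means of 0.0486 to 0.759 RPKM. In washed cells Fcer1g (454 ± 93.2 RPKM) and Fcgr3 (249 ± 33.2 RPKM) were again highest, and Fcgr2b (80.0 ± 37.4 RPKM) and Tyrobp (45.3 ± 6.78 RPKM) overlapped (SD, n = 3 each).

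Since Fcgr2b rose and Fcgr3 hardly moved, the per-kilobase ratio of activating (Fcgr1, Fcgr3 and Fcgr4 together) to inhibitory IgG receptor transcripts was lower in doxycycline. It was 1.77, 4.22 and 4.92 in washed clones 1, 2 and 4, 1.15, 1.28 and 0.930 in doxycycline, and 2.54, 3.44 and 4.51 untreated. No doxycycline library overlapped with the others, and washed clone 1 was the lowest of those. The doxycycline ratio was 0.326 times the untreated one and the washed ratio 2.99 times the doxycycline one (exact permutation test, two-sided, p = 0.1 each, the smallest that 3 against 3 libraries can give; 0.225 adjusted over 9 tests). Fcgr3 made up 97.0% to 99.7% of the activating receptor transcripts in every library, so the ratio is in effect that of Fcgr3 to Fcgr2b, and the reads these genes may share touch it. Transcript ratios do not measure receptors at the cell surface.

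**Figure D3:**
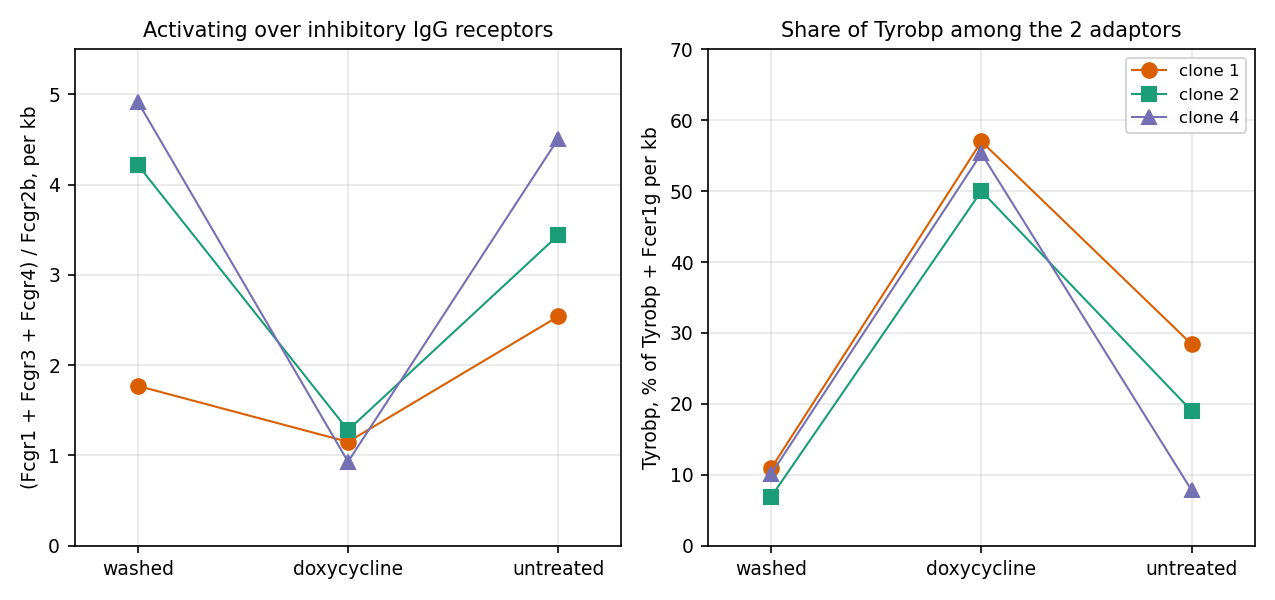
Left, ratio of activating to inhibitory IgG receptor transcripts per kilobase in each library; right, Tyrobp as a percentage of Tyrobp plus Fcer1g per kilobase, with lines joining the libraries of a clone. The ratio is lowest and the Tyrobp share highest in the 3 doxycycline libraries.

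Among the 2 adaptors, Tyrobp made up 10.9%, 6.90% and 10.1% of the transcripts per kilobase in washed clones 1, 2 and 4, 57.0%, 50% and 55.3% in doxycycline, and 28.4%, 19.0% and 7.80% untreated. Doxycycline cells held about as much Tyrobp as Fcer1g or more, while Fcer1g led in the other groups. Fcer1g stayed in near-constant proportion to the activating receptors: its ratio to them was 1.64, 1.90 and 1.89 in washed clones 1, 2 and 4, 1.59, 1.84 and 1.88 in doxycycline, and 1.86, 2.03 and 1.92 untreated (exact permutation test, doxycycline against untreated, p = 0.2). Per kilobase, Tyrobp exceeded Trem1 and Trem3 together in every library, by 7.63, 74.6 and 56.2 times in washed clones 1, 2 and 4, by 22.8, 85.4 and 42.8 times in doxycycline, and by 148, 310 and 106 times untreated. The untreated ratios were the highest and did not overlap with either other group, but rest on as few as 6 TREM counts in a library.

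The pattern of each gene was compared by the root mean square difference of log2 CPM, centred on the mean of the gene, over the 9 libraries. Fcer1g and Fcgr3 were the closest 2 of the 8 genes, at 0.103, although they are separate genes within a stretch of 273.8 kb on chromosome 1 that also holds Fcgr2b and Fcgr4. Fcgr2b and Fcgr4 followed at 0.404. Over all named genes tested, Rxrb, Ikbkb, Chmp4b, Oxr1 and Gm9349 were nearest to Fcer1g, at 0.0529 to 0.0720, a pattern that spans only 0.77 on the log2 scale. Tyrobp spans 4.14, and its nearest genes were F2rl2, a thrombin receptor subunit (0.420), Itgam, the integrin CD11b (0.498), Retnlg, a resistin-like protein (0.519), Ly6g, the Gr-1 antigen of mouse neutrophils (0.537), and Oas3, an interferon-induced enzyme (0.540). Libraries of a clone and of a group are shared by all these values, which are descriptions.

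The rest of the pathway was followed through lists of genes. Among 17 other receptors that pair with Fcer1g or Tyrobp, 7 were tested, of which 5 rose and 0 fell in doxycycline, against 6.57% and 4.35% of all genes. Of the 5, Clec5a, Cd300ld and Pilrb2 cleared the filter on low counts only through the doxycycline libraries, so that their rise follows from having been tested; of the other 4 tested, 2 rose (Clec4e and Pilrb1). Clec4e, the receptor Mincle, which signals through the FcR gamma chain, stood at 32.1 ± 3.37 CPM in doxycycline and 2.62 ± 0.354 CPM untreated (SD, n = 3 each, adjusted p = 0.00124). Pilrb1, a paired immunoglobulin-like receptor that uses DAP12, stood at 65.1 ± 9.61 CPM in doxycycline and 18.4 ± 2.35 CPM untreated (SD, n = 3 each, adjusted p = 0.00180). Clec5a, a lectin receptor that uses DAP12, stood at 23.9 ± 12.5 CPM in doxycycline and 0.514 ± 0.371 CPM untreated (SD, n = 3 each, adjusted p = 0.00516). The other risers were Pilrb2 and Cd300ld, which had 263 counts in doxycycline and 0 in the untreated group, at least 64.5-fold higher against a floor of 3 counts over the group. After washout the same 5 genes fell, against 6.02% of all genes, the fall of Clec5a, Cd300ld and Pilrb2 again following from having been tested. Paired receptors of this kind have close relatives, so their reads may be split between copies.

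Hcst, the neighbour of Tyrobp on chromosome 7, which encodes the adaptor DAP10, rose as well, to 25.0 ± 4.58 CPM in doxycycline, against 5.75 ± 2.58 CPM untreated (SD, n = 3 each, log2 fold change 2.12, adjusted p = 0.00925), and dropped on washout (log2 fold change -2.33, adjusted p = 0.00663). Of the 3 tested genes on the list of other adaptors, Hcst passed in the unpaired fit. With clones paired by a replicate block Cd3g, a T cell receptor chain, also passed, in the opposite direction (log2 fold change -2.49 in doxycycline, adjusted p = 0.122 unpaired and 0.0158 paired; 2.44 on washout, adjusted p = 0.136 unpaired and 0.0439 paired). Of 13 other Fc receptor genes, 2 were tested and 0 passed in either direction, among them the neonatal receptor Fcgrt, which passed when clones were paired by a replicate block (log2 fold change 1.63 unpaired, adjusted p = 0.225 unpaired and 0.0499 paired). Fcer1a, the ligand-binding chain of the IgE receptor that also uses Fcer1g, had 0 counts in all 9 libraries. Treml2, a TREM-like receptor without a known DAP12 partner, stood at 320 ± 52.2 CPM in doxycycline and 185 ± 21.9 CPM untreated (SD, n = 3 each, adjusted p = 0.0308).

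**Figure D4:**
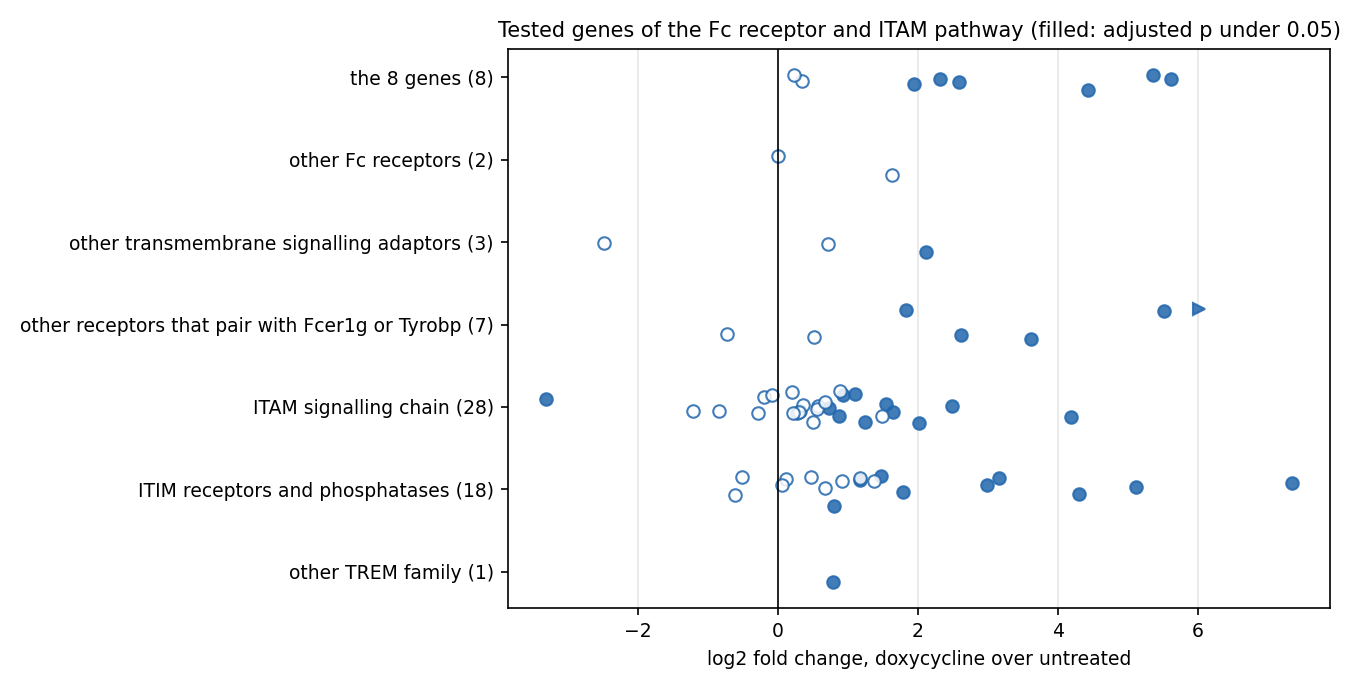
Log2 fold change in doxycycline over untreated of each tested gene on the pathway lists, one row per list with the number tested in brackets; filled points passed an adjusted p of 0.05, points are spread vertically only for legibility, and the triangle is the lower bound for Cd300ld. Filled points lie to the right of 0 except for Src.

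Downstream of the adaptors, 28 of 30 genes of the ITAM signalling chain were tested, of which 10 rose and 1 fell, against 6.57% and 4.35% of all genes, with a median log2 fold change of 0.57, against 0.00 over all genes. Nfatc1, a calcium-dependent transcription factor, stood at 70.5 ± 4.90 CPM in doxycycline and 17.5 ± 1.06 CPM untreated (SD, n = 3 each, adjusted p = 0.00180), and Pik3cg, a phosphoinositide kinase, at 132 ± 20.6 CPM in doxycycline and 23.7 ± 3.78 CPM untreated (SD, n = 3 each, adjusted p = 0.00631). Syk, Lyn, Btk, Plcg2, Sh3bp2, Prkcd and Pik3ap1 also rose, by 0.72 to 1.64 on the log2 scale, and Src itself fell (log2 fold change -3.32, adjusted p = 0.0481), having cleared the filter on low counts in 1 of 3 doxycycline libraries. After washout 10 of the 28 fell and 0 rose, against 6.02% and 3.64% of all genes, among those that fell Nfatc1 (log2 fold change -1.91, adjusted p = 0.00207) and Plcg2 (log2 fold change -0.90, adjusted p = 0.00956). With clones paired by a replicate block, 14 rose and 3 fell in doxycycline, against 13.0% and 11.7% of all genes, and 14 fell and 2 rose after washout, against 12.4% and 10.4%.

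The next list held 21 genes, mainly ITIM receptors and phosphatases, with Dok1, Dok2, Dok3, Cbl, Cblb and Cd200r1 beside them. In doxycycline 9 of the 18 tested rose, Dok2 and Dok3 among them, and 0 fell, against 6.57% and 4.35% of all genes. The median log2 fold change of the 18 was 1.17. Of the 18, Cd300lf and Pirb cleared the filter only through the doxycycline libraries, and of the other 16 tested 7 rose. Cd300lf, an inhibitory receptor for lipids, stood at 47.7 ± 9.53 CPM in doxycycline and 0.270 ± 0.204 CPM untreated (SD, n = 3 each, adjusted p = 0.000865). Ceacam1, an adhesion receptor with inhibitory motifs, stood at 62.7 ± 10.2 CPM in doxycycline and 7.85 ± 0.764 CPM untreated (SD, n = 3 each, adjusted p = 0.00120), and Sirpa, the receptor for CD47, at 430 ± 65.2 CPM in doxycycline and 124 ± 9.50 CPM untreated (SD, n = 3 each, adjusted p = 0.00124). The phosphatase SHP-1, encoded by Ptpn6, rose by 0.81 on the log2 scale (adjusted p = 0.00924), whereas the lipid phosphatase gene Inpp5d, through which Fcgr2b signals, gave 0.06 (adjusted p = 0.824). After washout 8 of the 18 fell and 0 rose, against 6.02% and 3.64% of all genes, and with the replicate block 10 fell and 1 rose, against 12.4% and 10.4%. Cd300lf and Pirb, tested only through the doxycycline libraries, were among the 8 that fell. The list counts depend on the clones as the Fc receptor calls do, since 0 genes in all passed in doxycycline without clone 4. In washed against untreated cells 0 genes of any pathway list passed.

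Most of the tested neutrophil markers, but not all, rose in doxycycline. The summed level of 9 neutrophil markers ran from 33.3 to 63.0 CPM in washed cells and from 493 to 2140 CPM in doxycycline, against 17.5 to 93.9 CPM untreated. The highest doxycycline means were those of S100a9 (635 CPM), Ngp (294 CPM) and S100a8 (222 CPM). Of the 8 tested 6 rose, against 6.57% of all genes, 2 of them (Retnlg and Ly6g) tested only through the doxycycline libraries. Camp (log2 fold change 0.12, adjusted p = 0.94) and Ltf (log2 fold change 1.28, adjusted p = 0.347) did not pass. The 10 monocyte and macrophage markers summed to 16.8 to 106 CPM in washed cells and 45.5 to 233 CPM in doxycycline, against 57.4 to 86.4 CPM untreated; 0 of 3 tested passed, and the defining macrophage marker C1qa had 0 counts in each group. Eosinophil markers, led by Epx, eosinophil peroxidase, summed to 8270 to 10900 CPM in washed cells and 3290 to 4920 CPM in doxycycline, against 8320 to 12300 CPM untreated. That sum is mostly Epx, which fell (log2 fold change -1.34, adjusted p = 0.0388), whereas Siglecf, the lectin receptor Siglec-F, and Il5ra, the interleukin-5 receptor chain, rose (log2 fold change 5.32, adjusted p = 0.00941, and 3.31, adjusted p = 0.0467), both tested only through the doxycycline libraries. The 9 mast cell and basophil markers summed to 695 to 3620 CPM in washed cells and 394 to 2420 CPM in doxycycline, against 2540 to 3360 CPM untreated. In the unpaired fit 1 of 6 tested, Cma1, fell. Cma1 cleared the filter on low counts in 0 doxycycline libraries, so that its fall follows from having been tested. With clones paired by a replicate block 3 of the 6 fell (Cma1, Cpa3 and Gata2), against 11.7% of all genes. The 8 megakaryocyte and erythroid markers summed to 89.4 to 137 CPM in washed cells and 463 to 673 CPM in doxycycline, against 92.5 to 253 CPM untreated; Itga2b, the platelet integrin chain CD41, made up most of it and was the 1 of 3 tested that rose (log2 fold change 1.68, adjusted p = 0.0224), while the platelet marker Pf4 had 0 counts in each group. The part of these shifts in the Fc receptor results was not tested, and in bulk libraries fewer cells of a type and less RNA per cell cannot be told apart. The 6 NK cell markers summed to 30.8 to 120 CPM in washed cells and 113 to 168 CPM in doxycycline, against 76.3 to 106 CPM untreated, nearly all of it Prf1, the pore-forming protein perforin, while Ncr1 and Gzma had 0 counts in each group. The 6 T cell markers summed to 9.85 to 211 CPM in washed cells and 10.3 to 39.0 CPM in doxycycline, against 84.4 to 164 CPM untreated, most of it Cd3g, while Cd4 had 0 counts in each group. The 8 dendritic cell markers summed to 11.4 to 188 CPM in washed cells and 29.0 to 118 CPM in doxycycline, against 104 to 181 CPM untreated, mostly the class II gene H2-Ab1, while Cd209a and Siglech had 0 counts in each group. The 5 B cell markers summed to at most 6.18 CPM in any library, with Pax5 at 0 counts. Of the NK, T, dendritic and B cell markers tested (1, 1, 2 and 1), 0 passed in the unpaired fit.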

How the data were processed

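RNA-seq counts were analysed for 9 libraries, 3 clones in each of 3 groups. Per the file headers, the authors deposited raw read counts per Entrez gene with a gene length, without normalization. The submitters' processing notes name mm10, featureCounts, limma 3.22.0, CASAVA 1.8.2 and edgeR 3.8.2. Aligner, annotation and strand setting: not given in the sources used here. Symbols came from RefSeq GRCm38.p6, which matched 25275 of 27179 entries. Files were joined, genes filtered with filterByExpr (minimum count 10, 12004 kept) and TMM factors computed. Under R 4.3.3, edgeR 4.0.16 was fitted to all libraries with 1 mean per group. SE is the log2 fold change over the square root of F, and a prior count of 2 entered log2 CPM. The procedure was tested on simulated data drawn without clone differences, so that check does not cover the spread between clones. Even the closest libraries, washed and untreated clone 4, differed beyond sampling noise (chi-square over degrees of freedom 3.63). Intervals of counts cover counting error only.

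Deviations from group means correlated at 0.29 to 0.68 between libraries of the same clone in all 9 pairs. The 18 pairs of different clones gave -0.692 to 0.323, so the ranges overlapped slightly, and taking deviations from a mean of 3 libraries itself pushes these values down. Libraries of 1 clone come from 1 single-cell line, so the clone numbers pair them. Alternatives were a clone block, RLE, library size alone, no filter, 5 CPM in 3 libraries, DESeq2 1.42.0, limma 3.58.1 voom, the 2 groups alone, leaving out clones or the untreated library of clone 1, and leaving out its largest entry. Leaving out the washed library of clone 1 was added after seeing the data. The genes and lists were chosen with earlier results of these data known. Named genes are the 8 genes, Spi1, the called genes with the 3 smallest p in each list and comparison, and the 5 nearest patterns of each adaptor; other genes were named after their values were seen, and some items are not reported here.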

Additional observations from a re-analysis of the deposited data

How the results depend on the processing

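Of the 8 genes, 6 passed in doxycycline against untreated, 4 in washed against doxycycline and 0 in washed against untreated, and the last was 0 under each alternative. Leaving out a clone gave 0 to 5 of the 8 for doxycycline against untreated and 0 to 4 for washed against doxycycline, and with the replicate block 3 to 6 and 3 to 6; leaving out untreated clone 1 alone gave 2 and 4, and washed clone 1 alone 6 and 5. Of all genes 1311 and 1160 passed in those comparisons. These became 2138 and 1967 with DESeq2, 2976 and 2744 with the replicate block, 2026 and 324 with the 2 groups alone, and 648 for washed against doxycycline with library size alone. Leaving out a clone gave 0 to 967 and 4 to 1069 genes, with the replicate block 360, 623 and 4117 and 320, 421 and 4325, without untreated clone 1 347 and 717, and without washed clone 1 2258 and 1814. With library size alone, all genes had a median of 0.23 (log2) in doxycycline against untreated and the share of calls that were higher to 75.6%, against 60.2%. Clone differences called 1 of the 8 genes with library size alone and 1 without the filter. The fold changes of the 8 genes kept their direction in both doxycycline comparisons under every alternative in which they were tested. Fcgr4 and Trem3 were not tested with the filter of 5 CPM in 3 libraries, where 4 and 3 of the 8 genes passed in those comparisons. Washed against untreated turned sign with no call for Fcer1g (0.16 with library size alone, 0.0691 without clone 1, within -0.085 to 0.0691 over the clones left out, 0.0667 without clone 1 with the replicate block, 0.14 without washed clone 1), Fcgr2b (-0.0873 to 0.358 when leaving out a clone or the untreated library of clone 1, lowest of these without clone 1, -0.0864 without clone 1 with the replicate block, -0.27 without washed clone 1), Trem1 (-1.31 without clone 1, -1.33 without clone 1 with the replicate block, -0.86 without washed clone 1) and Fcgr1 (-3.96 to 3.69 when leaving out a clone, highest without clone 2, 3.79 there with the replicate block, 0.38 without washed clone 1). The cause was not tested. The log2 differences of the 3 ratios without 1 clone ran from -1.85 to -1.28, 1.17 to 2.06 and -0.20 to 0.21 for activating to inhibitory receptors; Tyrobp to TREM gave -0.89 to 0.10 for washed against doxycycline.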
